A study of Mus musculus with 27 samples.

Results

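The 10 genes described here belong to the Notch pathway: the receptors Notch1, Notch2 and Notch3, the ligands Dll1 and Jag1, the DNA-binding factor Rbpj, and the effectors Hes1, Hes5, Hey1 and Hey2. They were taken by name from a count table of 55487 genes, each matched through its Ensembl identifier, and all 10 were found there. Their levels were compared across 3 regions of the optic stalk, which connects the eye cup with the forebrain, in control and mutant mouse embryos at embryonic day 14 (E14). Laser-capture microdissection of frozen sections gave a dorsal piece, a ventral piece and one rich in axons of retinal ganglion cells (the axon area), and RNA of each piece was amplified and sequenced as its own library. The 4 control and 5 mutant embryos gave 27 libraries in 6 groups.

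The mutants, Smarcc1-DCT-cKO, carried loxP sites on both copies of Baf155, the gene also named Smarcc1, together with Dct-Cre, and the lines were kept with the Z/EG reporter on C57Bl6/J. Controls were littermates without Dct-Cre. Smarcc1 encodes a core subunit of the SWI/SNF (BAF) chromatin remodelling complex. Dct is a gene of melanin synthesis, so the Cre acts in the presumptive pigmented epithelium and in the optic stalk, first on its dorsal side and by E14 on its ventral side too, and it reaches some but not all Pax2-positive cells of the optic disc. Batch A held 1 control and 3 mutant embryos and batch B held 3 control and 2 mutant embryos, so genotype and batch were partly mixed. The labels do not say what a batch is.

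In Notch signalling a ligand on one cell binds a receptor on its neighbour, proteases free the intracellular part of the receptor, and that part joins Rbpj on DNA and turns on Hes and Hey genes. Hes and Hey proteins are transcriptional repressors that keep down proneural genes such as Atoh7, and neural progenitors with active Hes genes stay undifferentiated. In the eye, Hes1 is known to hold back neuronal differentiation in the early optic cup.

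Promoter sequence, with the start sites that RefSeq gives on GRCm38.p6 (the same assembly as mm10), was at hand for 8 of the 10 genes (all but Hes1 and Hey1), with 10 start sites in all. The 250 bases before each start were searched on both strands for GTGGGAA, a word that Rbpj binds, and for CACNAG, the N box that Hes proteins bind; the words can share the letters CAC. Only Hes5 and Hey2 held the Rbpj word, which 5.42% of all 32851 promoters of this length hold. The N box was found before the starts of Notch1 and Notch2 and at 2 places before that of Notch3, against 36.7% of all promoters. The windows of Hes5 and Hey2 are shown for their matches and that of Dll1, at the upstream one of its 2 starts, for a ligand gene with neither word. They lie at chr4:154960673-154960922 (Hes5, + strand), chr10:30842784-30843033 (Hey2, - strand) and chr17:15376933-15377182 (Dll1, - strand), each written 5′ to 3′ on the strand of the gene with the Rbpj word in capitals.
Hes5: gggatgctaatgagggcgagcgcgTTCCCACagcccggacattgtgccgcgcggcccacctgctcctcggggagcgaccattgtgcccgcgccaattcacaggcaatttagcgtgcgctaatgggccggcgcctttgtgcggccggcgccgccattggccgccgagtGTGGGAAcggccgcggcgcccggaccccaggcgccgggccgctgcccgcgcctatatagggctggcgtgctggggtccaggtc
Hey2: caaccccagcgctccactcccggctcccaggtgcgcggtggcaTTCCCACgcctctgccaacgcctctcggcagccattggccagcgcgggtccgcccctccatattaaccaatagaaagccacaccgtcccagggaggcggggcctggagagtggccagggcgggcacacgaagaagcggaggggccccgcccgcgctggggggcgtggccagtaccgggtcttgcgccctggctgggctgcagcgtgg
Dll1: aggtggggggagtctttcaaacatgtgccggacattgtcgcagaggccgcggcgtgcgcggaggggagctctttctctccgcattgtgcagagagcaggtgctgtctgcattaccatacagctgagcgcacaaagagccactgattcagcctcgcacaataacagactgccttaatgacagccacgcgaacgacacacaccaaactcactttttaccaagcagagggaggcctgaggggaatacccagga

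In Hes5 the word began 226 and 83 bases before the start, once on each strand, and in Hey2 it began 207 bases before the start. These matches are descriptions of the letters and were not tested as binding sites.

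The libraries held 10.9 to 34 M counts (M, 1e6). Genes with reads numbered 9225 to 11358 in axon-area mutants and 10076 to 14118 in axon-area controls. They numbered 12396 to 15177 in dorsal mutants and 12918 to 15086 in ventral mutants. The part of this difference in levels of 0 in axon-area mutants was not tested. Levels are given as CPM (counts per M counts), where 1 read equals 0.0294 to 0.0917 CPM and 3 counts, taken as the floor below which a level of 0 cannot be told from a low one, equal 0.0883 to 0.275 CPM. Smarcc1 itself read 75.9 to 289 CPM in dorsal controls against 2.26 to 107 in dorsal mutants, with overlap, whereas the groups were apart in the ventral stalk (75.7 to 198 against 14.7 to 64.4) and in the axon area (50.1 to 242 against 1.86 to 44.9). All 9 markers of optic stalk and astrocyte progenitors (Pax2, Sox2 and others) were above the floor in 5 groups, and in the axon area of mutants all but Vax2 were. Pou4f2, a factor of retinal ganglion cell nuclei, was at the floor in both axon groups, and also in both dorsal groups and in ventral controls. Neuronal markers summed to 38.3 to 529 CPM in the axon area, with Tubb3, Elavl3 and Elavl4 also at the floor in its mutants. The same sum was 1.91 to 1375 CPM in dorsal controls and 47.8 to 1641 CPM in ventral controls. In bulk libraries such as these, fewer cells that express a gene and less RNA per cell cannot be told apart.

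In the dorsal stalk Hes1 was the gene of the 10 whose genotypes did not overlap: all 5 mutant libraries lay below all 4 controls, with a mean of 86.9 CPM against 264. The ligand Dll1 and the effector Hes5, near 0 in dorsal controls, were present in most dorsal mutant libraries. The means of the receptors Notch2 and Notch3 were close in the 2 genotypes, while Notch1 varied too widely between libraries to resolve a difference. After adjustment over 16145 genes, none of the 10 was called in the dorsal comparison by edgeR's quasi-likelihood test (adjusted p under 0.05 and a log2 fold change over 0.58 in size), a rule that 0.0124% of genes met. An unadjusted p under 0.05 was found for 2 of the 10, Hes1 and Dll1, against 5.35% of all genes, and groups without overlap for 1 of the 10, against 2.92%. DESeq2, run on the same counts, called Hes1 (adjusted p = 6.87e-06) and Dll1 (adjusted p = 0.0156), and called 3.86% of all genes. Dll1 passed the count filter only with mutant libraries, so its place in these counts is a description.

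In the ventral stalk edgeR called 0 of the 10 and 0% of all genes, 0 of the 10 had an unadjusted p under 0.05 (3.19% of all genes), and 0 had groups without overlap (1.23%). DESeq2 also called 0 of the 10 there, and 2.45% of all genes. In the axon area the edgeR counts were again 0 of the 10 called (0% of genes), 0 with an unadjusted p under 0.05 (3.55%) and 0 without overlap (1.28%). DESeq2 called 1 of the 10 there, Notch3, and 10.4% of all genes. The median log2 fold change of the 10 genes was 0.05 in the dorsal stalk (-0.04 over all genes), 0.09 in the ventral stalk (-0.08) and -1.17 in the axon area (-0.29), or -2.27 there without Dll1, which was at the floor in both genotypes.

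**Figure D1:**
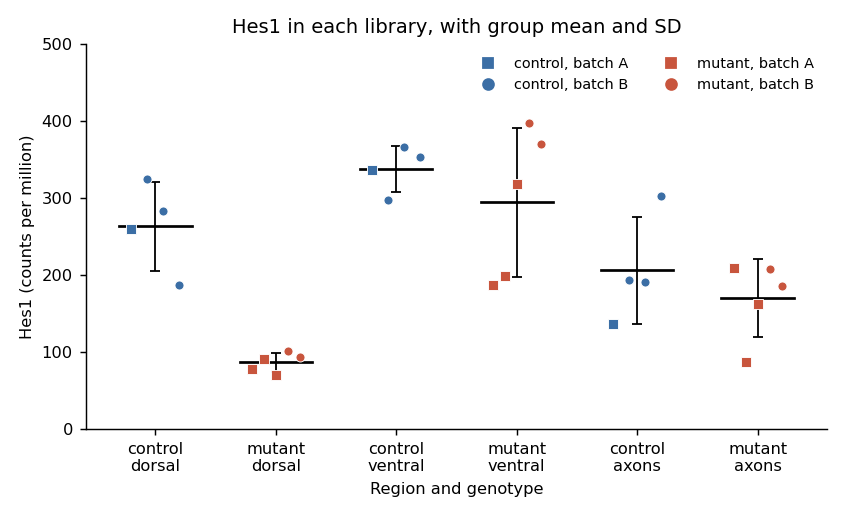
Hes1 level in CPM (vertical axis) in each library of the 6 groups (horizontal axis), with squares for batch A, circles for batch B, a black line for the group mean and bars for the SD. The 5 dorsal mutant libraries lie between 70.6 and 101 CPM, below the 4 dorsal controls (187 to 325), while the genotypes overlap in the other regions.

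Hes1 (chr16:30064384-30067796, + strand, ENSMUSG00000022528) encodes the basic helix-loop-helix repressor that is the best known effector of the pathway. Its dorsal level was 259.7, 325, 283 and 187 CPM in controls 1 to 4. In the dorsal libraries of mutants 1 to 5 it was 78.4, 90.7, 70.6, 101 and 93.7 CPM. The highest mutant library was thus below the lowest control, and the mutant libraries of both batches lay close together. The mutant mean was 86.9 ± 12.2 CPM (SD, n = 5) and the control mean 264 ± 57.6 (SD, n = 4), a ratio of 0.329. The edgeR log2 fold change was -1.52 ± 0.33 (SE), with an adjusted p of 0.38. An exact permutation test (two-sided) of log2(CPM + 1) gave p = 0.00794 over all arrangements of the 9 libraries and p = 0.025 over the 40 that keep the batch composition, the smallest values these tests can give. Within batch B alone the log2 fold change was -1.43 ± 0.46 (SE, 3 controls and 2 mutants), and leaving out 1 library at a time it stayed between -1.67 and -1.42.

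In the ventral stalk Hes1 was at 337, 297, 366 and 353 CPM in controls 1 to 4. The ventral mutant libraries fell into a lower pair, 187 and 199 CPM in mutants 1 and 2, and 3 at the level of the controls, with 318, 398 and 370.5 CPM in mutants 3 to 5. The edgeR log2 fold change was -0.11 ± 0.25 (SE, adjusted p = 0.999). Axon-area controls gave 137, 194, 191 and 303 CPM and the mutants 209, 87.3, 163, 208 and 186 CPM. The genotypes overlapped there, with a log2 fold change of -0.07 ± 0.43 (SE) by edgeR (adjusted p = 1).

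The difference between the dorsal and the ventral genotype effect on Hes1, tested as an interaction over all 27 libraries with edgeR, was -1.36 ± 0.41 on the log2 scale (SE, adjusted p = 0.495). Between the dorsal stalk and the axon area the difference was -1.33 ± 0.41 (SE, adjusted p = 0.233), and between the ventral stalk and the axon area 0.02 ± 0.41 (SE, adjusted p = 1). Both dorsal differences missed the threshold after adjustment with edgeR, and both passed it with DESeq2 (adjusted p = 0.00302 and 0.00106). Over the group means, Hes1 was highest in ventral controls (338 CPM), followed by ventral mutants (295), dorsal controls (264), axon-area controls (206), axon-area mutants (171) and dorsal mutants (86.9). Each pair of neighbours in this order overlapped in its libraries, and of those set against each other in a test, only mutant axons and mutant dorsal had a p under 0.05 in an exact permutation test (two-sided, p = 0.0317), with 2 of the 5 dorsal libraries below all axon libraries.

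**Figure D2:**
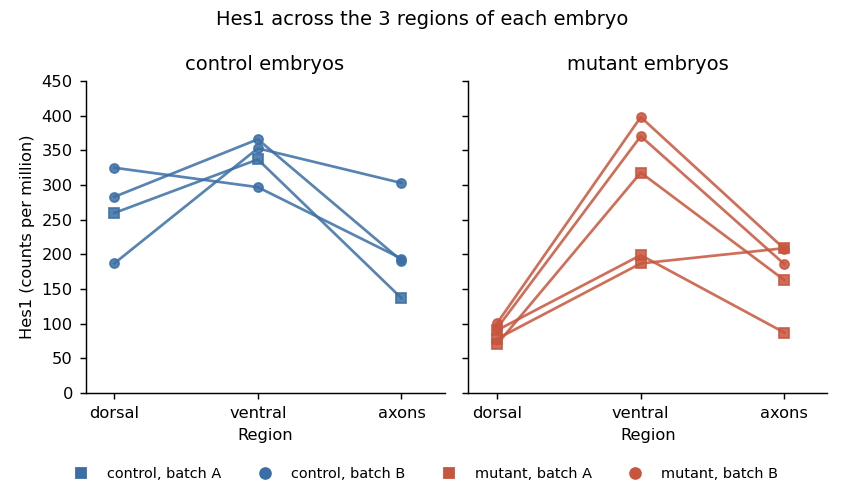
Hes1 in CPM (vertical axis) across the dorsal, ventral and axon libraries (horizontal axis), with a line joining libraries of 1 genotype that share a replicate number, squares for batch A and circles for batch B. Every mutant line starts at 101 CPM or lower and is higher in the ventral library.

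Libraries of a genotype that share a replicate number were taken as coming from 1 embryo, which the labels do not state. The dorsal level of Hes1 divided by the ventral level of the same number was 0.77, 1.09, 0.774 and 0.53 in the controls and 0.419, 0.455, 0.222, 0.253 and 0.253 in the mutants. All 5 mutant ratios were below all 4 control ratios. Within mutants, Hes1 was lower in the dorsal than in the ventral stalk, with a log2 difference of -1.74 ± 0.27 (SE) by edgeR (adjusted p = 0.0625), a CPM ratio of 0.295 and no overlap. The exact permutation p (two-sided) was 0.00794. Neither this test nor these edgeR fits paired libraries by number. In controls the same log2 difference was -0.38 ± 0.27 (SE) by edgeR (adjusted p = 0.953).

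Other measured quantities also differed between the dorsal genotypes, though not all of them without overlap. The summed level of the 9 optic stalk and astrocyte progenitor markers was 1258 to 2200.4 CPM in dorsal controls and 445 to 862 CPM in dorsal mutants, with no marker at the floor in either group. The 10 mesenchyme markers summed to 1144 to 10367 CPM in dorsal controls and 55.6 to 373 in dorsal mutants, again with none at the floor. The 10 pigment and melanin markers summed to 39.5 to 5207 CPM in dorsal controls and 3522 to 13319 in dorsal mutants, which overlapped, with Rpe65 at the floor in both. Their part in the Hes1 difference was not tested. Across all 27 libraries the 5 genes whose log2(CPM + 1) followed Hes1 most closely, of 9347 with a mean of at least 10 CPM, were Fam49a (Pearson r = 0.79), Cdh6 (0.77), Zic1 (0.77), Daam2 (0.75) and Arl4a (0.73). These points share the 6 groups and are given as a description. Of the other genes of the set with a mean of at least 10 CPM, Hey2 was nearest to Hes1 (0.43) and Hey1 farthest (-0.33).

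**Figure D3:**
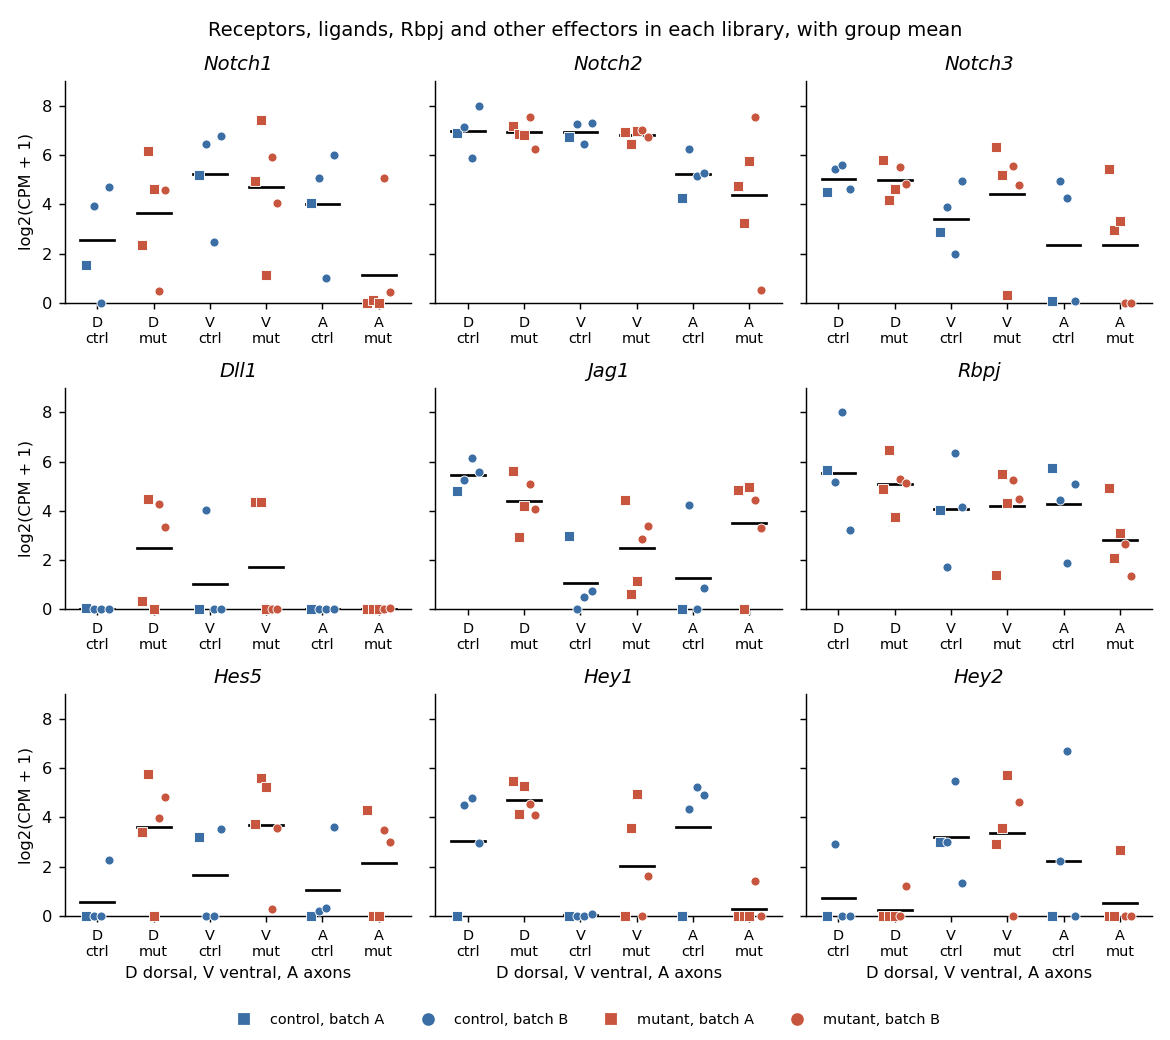
log2(CPM + 1) (vertical axis) of the 3 receptors, 2 ligands, Rbpj and the other 3 effectors in each library of the 6 groups (horizontal axis), with squares for batch A, circles for batch B and a black line for the group mean. Notch2 is at a like level in the 4 stalk groups, and Dll1, Hes5, Hey1 and Hey2 sit at 0 in many libraries.

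Among the receptors, Notch2 (chr3:98013527-98150361, + strand) was detected in every library. Its dorsal level was 119, 138, 58.4 and 251 CPM in controls and 142, 113, 112, 186 and 74.9 CPM in mutants, so the mutant range lay inside that of the controls. The edgeR log2 fold change was -0.08 ± 0.49 (SE, adjusted p = 1). The ventral levels were 105, 151, 85.4 and 157 CPM in controls and 121, 86.3, 125, 129 and 105 CPM in mutants, with a log2 fold change of -0.08 ± 0.37 by edgeR (SE, adjusted p = 0.999). Neither difference exceeded the spread between libraries. The axon area was lower in controls, at 18.2, 74.3, 34.1 and 37.8 CPM, all below every ventral control. Mutant axon libraries scattered from 0.444 to 186 CPM, with 26, 8.57, 52.8, 186 and 0.444 CPM in mutants 1 to 5, and gave no genotype difference beyond that scatter (edgeR log2 fold change 0.83 ± 1.52, SE, adjusted p = 0.987).

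Notch1 (chr2:26457903-26516663, - strand), the receptor of most neural progenitors, varied more between embryos than between genotypes. It was at 1.91, 14.3, 0 and 25.3 CPM in dorsal controls and at 4.13, 71.3, 23.9, 0.414 and 22.7 CPM in dorsal mutants. The ventral levels were 35.7, 86.7, 4.63 and 107 CPM in controls and 29.5, 168, 1.18, 59 and 15.7 CPM in mutants. In both regions the spread within a genotype was wider than the distance between the genotypes. The edgeR log2 fold changes were 1.03 ± 2.69 in the dorsal stalk (SE, adjusted p = 1) and -0.24 ± 1.38 in the ventral stalk (SE, adjusted p = 0.999). In the axon area the controls read 15.6, 32.1, 1.01 and 63 CPM, and 4 of the 5 mutants lay below all of them, at 0, 0.0853, 0 and 0.355 CPM, with the remaining one at 32.4. The exact permutation test (two-sided) of that difference gave p = 0.0873 and edgeR gave a log2 fold change of -4.43 ± 3.29 (SE, adjusted p = 0.909).

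Notch3 (chr17:32120820-32166852, - strand), the receptor typical of the mural cells of vessels, was present in all dorsal libraries, at 21.8, 42.6, 47.6 and 23.7 CPM in controls and 55, 17.2, 23.8, 44.8 and 27.3 CPM in mutants. The 2 means, 33.9 and 33.6 CPM, were almost equal. Mural markers summed to 178 to 397 CPM in dorsal controls and 98.1 to 455 in dorsal mutants. Ventral Notch3 was 2.97 to 29.4 CPM in controls and 0.235 to 79.7 CPM in mutants. In the axon area 2 of 4 controls and 2 of 5 mutants were at or near 0, and the fitted log2 fold change of -9.13 ± 7.07 (SE, edgeR, adjusted p = 0.911) stood beside nearly equal means of 11.7 CPM in mutants and 11.9 CPM in controls. DESeq2 called Notch3 in this area (log2 fold change -9.33) on these same counts. With edgeR the log2 fold change was -0.05 with no batch term, -0.09 in one fit of all 27 libraries and -0.68 with the replicate number as a block, and it was -0.07 without axon-area mutant 4 and -0.02 without mutant 5.

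The ligands differed from one another by region. Dll1 (chr17:15367354-15376872, - strand), which cells entering neurogenesis present to their neighbours, had at most 1 read in each of the 4 dorsal controls. In dorsal mutants it was at 0.275, 21.3, 0, 18.6 and 9.17 CPM, above every control in 4 of 5 libraries. Against the floor of the controls this is at least 57.2-fold higher, with an unadjusted p of 0.0187 by edgeR and an adjusted p of 0.918. More than 10 counts of Dll1 were found in 1 control and 5 mutant libraries of all regions. It thus passed the count filter (more than 10 counts in 3 libraries) only with mutant libraries. Its dorsal p-values, folds and calls are therefore a description. The exact permutation p (two-sided) was 0.0873, and 0.125 within batches. In the ventral stalk 1 of 4 controls (15.6 CPM) and 2 of 5 mutants (19.3 and 19.2 CPM) held Dll1 and the rest were at 0. The fitted ventral log2 fold change of -7.29 ± 7.51 (SE, edgeR, adjusted p = 0.999) had the opposite sign to the ratio of means, 1.98. Both genotypes were at the floor in the axon area. About 20.5% of the exonic bases of Dll1 are shared with another annotated gene.

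Jag1 (chr2:137081456-137116644, - strand), a ligand of the Jagged family, was a dorsal gene in the controls, with 26.7, 36.7, 68.9 and 47 CPM there. The ventral controls held 6.95, 0, 0.4 and 0.683 CPM and the axon-area controls 0, 18.1, 0 and 0.824 CPM. Every dorsal control exceeded every control of both other regions. The log2 difference between dorsal and ventral controls was 4.45 ± 1.90 (SE) by edgeR (adjusted p = 0.615), and the ratio of means was 22.3. The ratio of dorsal to axon-area controls was 9.49. Both exact permutation tests (two-sided) gave p = 0.0286, the smallest possible with 4 against 4 when libraries are not paired by number. The mesenchyme markers, at 1144 to 10367 CPM in dorsal controls, were at 55.2 to 1284 CPM in ventral controls and 395 to 2504 CPM in axon-area controls. The 8 endothelial markers summed to 220.0 to 415 CPM in dorsal controls, above all ventral controls (23.7 to 188, with Pecam1 at the floor) and all axon-area controls (3.49 to 164, with Pecam1 and Esam at the floor), and so parted the regions as Jag1 did. The 8 mural markers summed to 178 to 397 CPM in dorsal, 53.5 to 333 in ventral and 66.5 to 164 in axon-area controls. The part of these cell types in the Jag1 difference was not tested. Dorsal mutants held 47.8, 6.68, 17.5, 32.5 and 16 CPM of Jag1, 3 of them below all controls, with an edgeR log2 fold change of -0.72 ± 1.15 (SE, adjusted p = 1). Ventral mutants held 20.4, 0.553, 1.24, 6.27 and 9.55 CPM and axon-area mutants 27.4, 0, 30.7, 20.9 and 9.01 CPM. In mutants the dorsal libraries thus overlapped those of both other regions, with means of 24.1 (dorsal), 7.61 (ventral) and 17.6 CPM (axon area).

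Rbpj (chr5:53466152-53657362, + strand), which carries the signal to DNA, was found in all 27 libraries at 1.55 to 257 CPM. Dorsal controls were at 49.4, 35.5, 257 and 8.48 CPM and dorsal mutants at 28.9, 87.3, 12.4, 38.3 and 34.1 CPM. Dorsal control 3 stood far above the others, and it also had the highest dorsal sums of mesenchyme (10367 CPM) and red blood cell markers (24359.9 CPM). The edgeR log2 fold change was -1.01 ± 1.11 (SE, adjusted p = 1) with that library, and without it the sign turned (log2 fold change 0.35). The ventral fold change was 0.02 ± 1.42 (SE, edgeR, adjusted p = 0.999) and that of the axon area -2.27 ± 2.10 (SE, edgeR, adjusted p = 0.911).

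Hes5 (chr4:154960923-154962371, + strand), the effector that marks Notch-active neural progenitors, was at 0, 0, 0 and 3.9 CPM in dorsal controls. In dorsal mutants it was at 9.63, 53.4, 0, 14.7 and 27.4 CPM, so that 4 of 5 libraries lay above all controls while Hes1 lay below them. The difference had an exact permutation p (two-sided) of 0.0635, and of 0.075 within batches, and an edgeR log2 fold change of 5.40 ± 3.45 (SE, adjusted p = 0.953). Ventral Hes5 was 8.23, 0, 0 and 10.4 CPM in controls and 12.4, 47.1, 36.2, 0.209 and 10.9 CPM in mutants, where again 4 of 5 were above all controls (exact permutation p = 0.159, two-sided). Axon-area controls gave 0 to 11.4 CPM and mutants 0 to 18.8 CPM. Of the exonic bases of Hes5, 31.8% are shared with another annotated gene. How this affects its counts depends on the strand setting of the counting, which is not known here.

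Mutant 2 had the highest dorsal Hes5, Notch1, Dll1 and Rbpj of the mutants. Its dorsal and ventral libraries also stood apart in the 6 retinal progenitor markers, with sums of 1601 CPM and 1497 CPM against 198 to 285 and 396 to 525 CPM in the other mutants. In dorsal controls that sum was 117 to 293 CPM. Without dorsal mutant 2 the log2 fold change was -1.55 ± 0.35 for Hes1 and 7.65 ± 4.17 for Dll1 (SE, edgeR, adjusted p = 0.568 and 0.942).

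Hey1 (chr3:8663359-8667256, - strand), a repressor of the Hey family that is also typical of vessels, differed between regions in controls. Ventral controls had at most 1 read, whereas dorsal controls gave 0, 22, 26.3 and 6.73 CPM and axon-area controls 0, 19.1, 36.7 and 28.6 CPM. Against the ventral floor the dorsal mean was at least 74.3-fold higher (edgeR adjusted p = 0.615) and the axon-area mean at least 114-fold higher (edgeR adjusted p = 0.453). Control 1 was at 0 in each region. Dorsal mutants held 43.8, 16.6, 37.6, 22.3 and 16.1 CPM and ventral mutants 0, 10.8, 30.0, 0 and 2.08 CPM. The ventral mutant mean was at least 46.3-fold above the control floor (edgeR adjusted p = 0.999), or at least 17.4-fold without mutant 3.

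In the axon area 4 of 5 mutants had 0 Hey1 reads and the remaining one 1.69 CPM, against 3 of 4 controls at 19.1 to 36.7 CPM. Those mutant libraries held reads of 9225 to 11358 genes and the controls of 10076 to 14118. The part of this difference in the levels of 0 was not tested. The exact permutation test (two-sided) gave p = 0.0476, or 0.1 within batches, and edgeR a log2 fold change of -4.00 ± 3.40 (SE, adjusted p = 0.911). All 5 dorsal mutants were above all 5 axon-area mutants (ratio of means 80.6, exact permutation p = 0.00794, two-sided). The edgeR log2 difference was 6.18 ± 2.53 (SE, adjusted p = 0.182). Endothelial markers summed to 3.49 to 164 CPM in axon-area controls and 0.0584 to 391 CPM in axon-area mutants, of which 4 lay at 244 CPM or more.

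Hey2 (chr10:30832359-30842801, - strand), the relative of Hey1, had reads in 8 of 9 ventral, 3 of 9 axon-area and 2 of 9 dorsal libraries. It was at 7, 6.94, 43.7 and 1.49 CPM in ventral controls and at 6.58, 10.9, 52.6, 0 and 23.7 CPM in ventral mutants. The dorsal libraries were at 0 except for control 2 (6.58 CPM) and mutant 5 (1.33 CPM). In mutants the dorsal to ventral log2 difference was -6.12 ± 2.58 (SE) by edgeR (adjusted p = 0.381), with an exact permutation p (two-sided) of 0.0476. The genotypes did not differ beyond their spread in any region (edgeR adjusted p of 0.911 in the axon area, 0.999 in the ventral stalk and 1 in the dorsal stalk), and 1 axon-area control, number 3, held 103 CPM, the highest level of the gene, while the others held 0 to 3.66.

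In the comparisons of regions among controls, edgeR called 0 of the 10 genes for dorsal against ventral (0% of all genes), dorsal against axons (0.0692%) and ventral against axons (0.0316%). An unadjusted p under 0.05 was found for 2 of the 10 (Hey1 and Jag1, both higher in the dorsal stalk) in the first, against 6.74% of genes, for 1 (Notch2, higher in the dorsal stalk) in the second, against 10.5%, and for 2 (Hey1 lower and Notch2 higher in the ventral stalk) in the third, against 9.19%. Groups were without overlap for Jag1 in the first (2.71% of genes), Jag1 in the second (4.41%) and Notch2 in the third (3.8%). DESeq2 called Hey1 and Jag1 in the first (1.85% of genes), 0 of the 10 in the second (4.41%) and Hey1 in the third (3.39%). Notch2 was 1.58 ± 0.70 higher on the log2 scale in dorsal than in axon-area controls (SE, edgeR, adjusted p = 0.386) and 1.41 ± 0.61 higher in ventral than in axon-area controls (SE, adjusted p = 0.453).

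In mutants edgeR called 0 of the 10 for dorsal against ventral (0% of genes), dorsal against axons (0.545%) and ventral against axons (0.443%). An unadjusted p under 0.05 was found for Hes1 and Hey2, both lower dorsally, in the first (12.4% of genes). In the second it was found for Hes1, lower dorsally, and for Hey1 and Dll1, higher dorsally (23.5%), and in the third for Dll1, higher ventrally (21.8%). Hes1 was without overlap in the first (1.53%) and Hey1 in the second (4.18%). With 10 genes, shares of 2, 3 and 1 of 10 are close to these shares of all genes. DESeq2 called Hes1 in the first (3.28% of genes), Hes1, Hey1 and Dll1 in the second (12%) and Dll1 in the third (10.6%). Dll1 was at least 60.8-fold higher in dorsal and at least 47.5-fold higher in ventral mutants than in axon-area mutants (edgeR adjusted p = 0.182 and 0.214), the latter falling to 29.6-fold without ventral mutant 1 and 29.7-fold without ventral mutant 2. As Dll1 passed the count filter only with dorsal and ventral mutant libraries, these values are a description. Hes1 was lower in the dorsal than in the axon-area mutants by a log2 difference of -1.15 ± 0.42 (SE, edgeR, adjusted p = 0.182).

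When the genotype effect was compared between regions, edgeR called 0 of the 10 for dorsal minus ventral (0.00612% of genes), dorsal minus axons (0.0245%) and ventral minus axons (0.00612%). The unadjusted p was under 0.05 for Hes1 and Hey1 in the first (7.39% of genes) and the second (11.7%) and for Hey1 in the third (10.4%). DESeq2 called Hes1 in the first (4.17% of genes), Hes1 and Hey1 in the second (10.5%) and Hey1 in the third (9.79%). The Hey1 differences on the log2 scale were -7.48 ± 3.42 (SE, edgeR, adjusted p = 0.598), 9.46 ± 3.82 (adjusted p = 0.309) and 16.94 ± 4.40 (adjusted p = 0.298). Their sizes come from groups in which most libraries hold no Hey1 read and are no measure of fold.

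**Figure D4:**
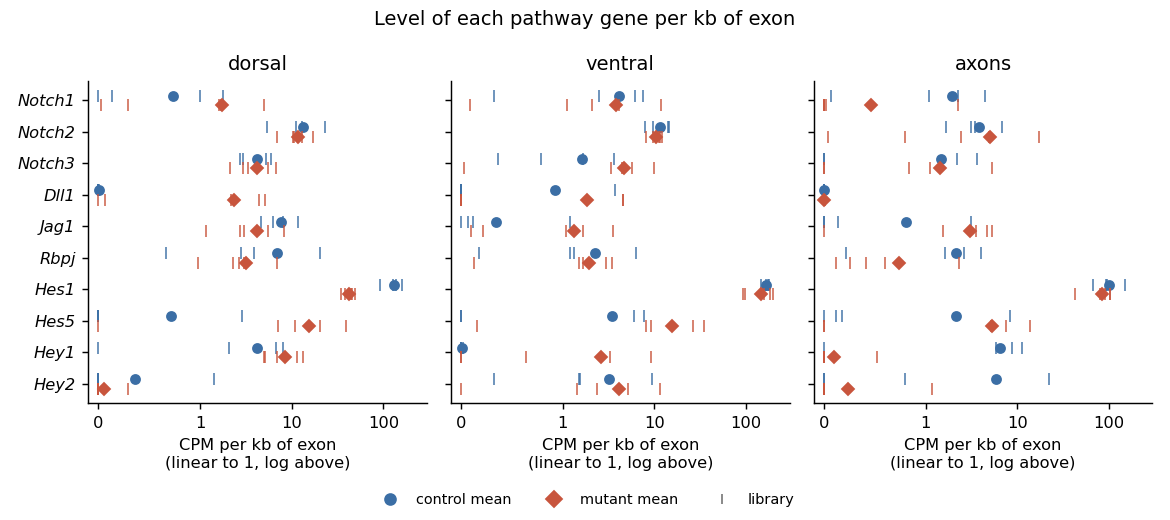
Level of each of the 10 genes in CPM per kb of exon (horizontal axis, linear to 1 and logarithmic above) in the dorsal, ventral and axon libraries, with ticks for libraries, circles for control means and diamonds for mutant means. Hes1 is the highest gene of the 10 in every panel and in both genotypes, at a mean of 42.6 to 166 CPM per kb.

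To compare genes with each other, counts were divided by the length of exon. Hes1 was first in all 6 groups, at 129 CPM per kb in dorsal controls, 42.6 in dorsal mutants, 166 and 145 in ventral controls and mutants, and 101 and 83.8 in axon-area controls and mutants. Notch2 was the next in dorsal (13.1 CPM per kb) and ventral controls (11.5), and Hey1 in axon-area controls (6.46). With the longest transcript as length, Rbpj came before Notch2 in dorsal controls and Hey2 before Hey1 in axon-area controls, so the order of these neighbours is not settled. In all 3 regions of the mutants the next was Hes5, at 15.4 ± 15.1 in the dorsal stalk, 15.7 ± 14.3 in the ventral stalk and 5.31 ± 5.77 CPM per kb in the axon area (SD, n = 5). The spread of Hes5 between libraries was as large as its mean, and its distance from Notch2 (11.6, 10.5 and 5.08 CPM per kb) was within that spread. Dll1 was last in dorsal controls and in both axon groups.

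Beyond the 10 genes, 47 further genes of the pathway were followed as a list, of which 42 could be tested in the dorsal comparison, 43 in the ventral and 41 in the axon comparison. With edgeR 0 were called in each. In the dorsal stalk 1 had an unadjusted p under 0.05 and was higher in mutants (Hes6) and 1 was lower (Ncstn), 2 of 42 against 5.35% of all genes, and the median log2 fold change was 0.05 against -0.04 for all genes. Hes6, a relative of Hes1 that opposes its action and marks differentiating neural precursors, was at 37.6, 26.9, 34.5 and 0.269 CPM in dorsal controls and 108, 252, 102, 129 and 82.3 CPM in dorsal mutants. The groups did not overlap. The edgeR log2 fold change was 2.25 ± 0.98 (SE, adjusted p = 0.918) and the exact permutation p (two-sided) 0.00794. Ncstn, a subunit of the gamma-secretase that cuts Notch receptors, was at 109 to 384 CPM in dorsal controls and 45.2 to 156 CPM in dorsal mutants (edgeR adjusted p = 0.918).

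Besides Hes6, 3 listed genes had dorsal groups without overlap, 4 of the 42 in all against 2.92% of all genes, and they are named here because of that. Dll3, a ligand of differentiating neural cells, was at 0 to 0.538 CPM in controls and 0.778 to 19.7 CPM in mutants. More than 10 counts of Dll3 were found in 2 of 12 control and 7 of 15 mutant libraries of all regions. It thus passed the count filter only with mutant libraries, and its place among the 4 is a description. Psenen, another gamma-secretase subunit, was at 35.4 to 68 CPM in controls and 73.1 to 143 CPM in mutants. Spen, a corepressor that works with Rbpj, was at 23.7 to 92.7 CPM in controls and 2.59 to 17.4 CPM in mutants. The dorsal edgeR adjusted p of Dll3, Psenen and Spen was 0.918, 0.953 and 0.959. Spen was also lower without overlap in axon-area mutants (0 to 8.16 CPM against 14.8 to 31.3 in controls). Its ventral mean was higher in mutants (50.6 CPM against 16.4). Of the listed genes, 1 of 43 in the ventral stalk and 2 of 41 in the axon area were without overlap (1.23% and 1.28% of all genes). In the ventral stalk the unadjusted p was under 0.05 for 1 gene higher in mutants, Psen2 (means 24 and 1.93 CPM, edgeR adjusted p = 0.999). It was also under 0.05 for 2 lower, Dtx4 (means 62.8 and 144 CPM) and Heyl. Heyl was at the floor in mutants but also at 0 in 2 of 4 controls. Its mutant mean was at least 29.5-fold lower, or 17.8-fold without control 1. Together Psen2, Dtx4 and Heyl were 3 of 43, against 3.19% of all genes. For the axon area it was under 0.05 for Maml3, lower in mutants (means 0.081 and 11.5 CPM, edgeR adjusted p = 0.88), 1 of 41 against 3.55% of all genes. DESeq2 called Psen2 in the ventral stalk (adjusted p = 0.000415), where it called 2.45% of all genes.

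**Figure D5:**
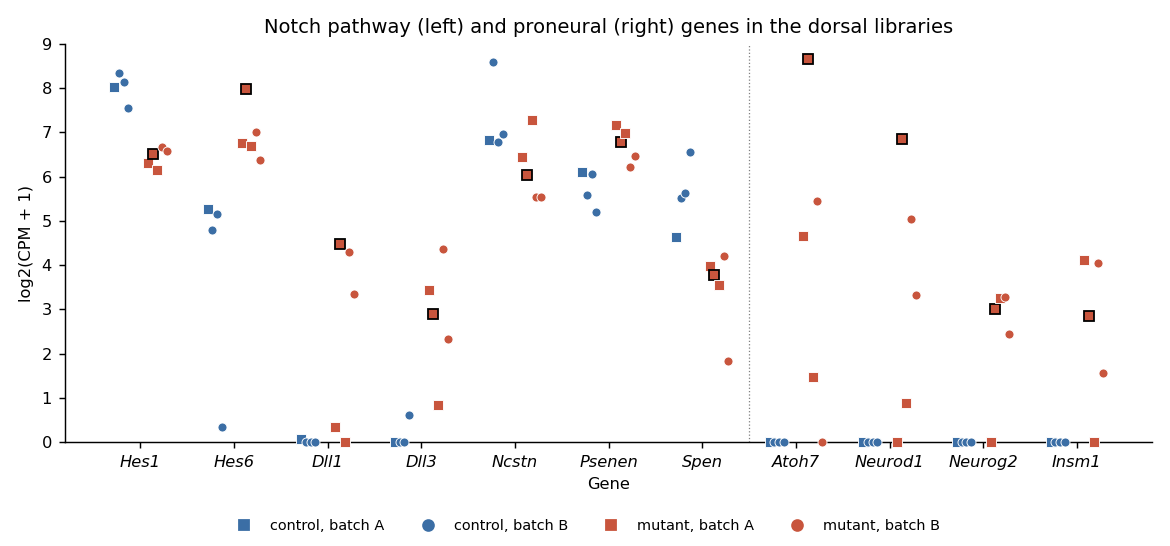
log2(CPM + 1) (vertical axis) in the dorsal libraries for Hes1, Dll1 and 5 listed pathway genes left of the dotted line and 4 proneural genes right of it (horizontal axis), with squares for batch A, circles for batch B and a black outline for mutant 2. All 4 controls sit at 0 for the 4 proneural genes, and 4 of 5 mutants are above 0 for each of them. Of the listed proneural genes not shown, Neurod4 was above 0 in 2 of 5 dorsal mutants and Neurog1 was at 0 in all 5.

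The proneural factors, which Hes repressors are known to hold down, were followed as a list of 6. In dorsal controls all 6 were at 0 in all 4 libraries. In dorsal mutants 5 of the 6 were above the floor and the sum of the list was 102, 586, 11.2, 99.3 and 15.4 CPM. Of the 5 that passed the count filter, edgeR called 0, and 4 had an unadjusted p under 0.05 (5.35% of all genes). DESeq2 called Atoh7 (adjusted p = 5.86e-05) and Insm1 (adjusted p = 0.0225), and called 3.86% of all genes. With no count filter the edgeR adjusted p was 6.04e-09 for Atoh7 and 0.0347 for Neurod1. Each of the 5 had more than 10 counts in at most 1 of the 12 control libraries of all regions, so they passed the filter through mutant libraries and their direction was not open. These counts and calls are therefore a description. Atoh7, the factor needed for retinal ganglion cells, was at 24, 405, 1.77, 43 and 0 CPM, at least 549-fold above the control floor (edgeR adjusted p = 0.844), or at least 99.7-fold without mutant 2. Neurod1 was at 0, 115, 0.848, 32.2 and 9.04 CPM, at least 182-fold above it (edgeR adjusted p = 0.918), or at least 61-fold without mutant 2. Insm1, a zinc finger factor of newborn neurons, was at 16.4, 6.26, 0, 15.4 and 1.93 CPM, at least 46.5-fold above it (edgeR adjusted p = 0.918). The dorsal library of mutant 2, which had the highest retinal progenitor sum, held the most Atoh7 and Neurod1, but Insm1 was highest in mutant 1. In ventral controls the sum was 0 to 11.1 CPM. In ventral mutants 1 to 5 it was 5.54, 249, 0, 0.279 and 4.65 CPM, so only mutant 2 lay above all controls. In the axon area 1 of 9 libraries, mutant 4, was above the floor, with 51.1 CPM.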

How the data were processed

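The deposited values are raw counts of reads by gene. The authors ran Seq2Science on their single-end reads, with STAR for the alignment (mm10) and HTSeq for the counting. Tool versions, annotation release and strand setting are not given in the sources used here, so genes that share exonic bases cannot be fully told apart. The cDNA was amplified by PCR without molecular identifiers, so floors cover counting error only. Symbols came from GENCODE M21 for 55227 of 55487 identifiers, and the 260 others hold 0.00287% of the counts. Tissue of an earlier stage was not analysed here. Of the libraries, 0 pairs held identical counts.

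The 16330 genes that exceeded 10 counts in 3 or more libraries were fitted with edgeR 4.0.16 in R 4.3.3 (quasi-likelihood F-test, two-sided, robust, TMM scaling, Benjamini-Hochberg adjustment over all genes fitted), with batch as a term where genotypes were compared. The filter and the thresholds (adjusted p under 0.05, log2 fold change over 0.58 in size) are those of the study's methods, although its results text names a lower fold threshold, and the study's own tool, DESeq2 (here 1.42.0), was run as an alternative. Standard errors were derived from the F statistic and are approximate. Permutation tests used log2(CPM + 1) and were exact and two-sided. In comparisons between regions neither these tests nor the main edgeR fits paired libraries by number. A group with at most 3 counts in each library was taken to be at the floor, and folds against it are lower bounds computed with the mean of 3 counts per library. Levels per kb used the union of a gene's exons. The fits and the permutation test were tested on simulated data.

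Named genes were the 10 genes in the genotype comparisons, those with an unadjusted p under 0.05 in the other comparisons, and from 2 lists (47 further Notch genes and 6 proneural genes) up to 3 per direction and region with an unadjusted p under 0.05. Some genes of the marker and proneural lists as first drawn up are not reported here and are in none of the counts or sums. The genes and lists were chosen with earlier results of these data known. Group, region, genotype, batch and number came from the labels, and p-values measure the spread between these libraries. The study took 3 regions from each embryo, so libraries of a genotype with 1 number were taken as 1 embryo. Their deviations from the group means correlated at -0.02 to 0.11 over 27 pairs, with the own number highest in 17, and at -0.05 to 0.03 over 12 pairs of a control and a mutant with the same number, with 0 highest. The alternatives were DESeq2, RLE scaling, no count filter, no batch term, batch B alone, all 27 libraries in one fit, the replicate number as a block, the longest transcript for levels per kb, each library left out in turn and, chosen after seeing the data, a pseudocount of 0.1 CPM.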

Additional observations from a re-analysis of the deposited data

Results flagged for a closer look

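Each of the 10 genes was checked in each group for a library whose gap to the next one took up most of the group's range. Of 59 sets of values, 19 held such a library. For normally distributed values chance gives about 1 in 20 sets, a rate that does not apply to the 9 of the 19 in which 1 library alone was above 0, since its gap is then the whole range. Of these, 3 were single reads: Hey1 in ventral control 4 (0.0621 CPM), Dll1 in dorsal control 1 (0.0416 CPM) and Dll1 in axon-area mutant 5 (0.0444 CPM).

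Among the effectors, Hes5 stood at 3.9 CPM in dorsal control 4 and at 11.4 CPM in axon-area control 4, with the next library at 0 and 0.239 CPM. Hey1 was at 1.69 CPM in axon-area mutant 4 and at 0 in the others. Hey2 stood apart in dorsal control 2 (6.58 CPM), dorsal mutant 5 (1.33 CPM), ventral control 3 (43.7 CPM), axon-area control 3 (103 CPM) and axon-area mutant 3 (5.37 CPM).

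Among the receptors, axon-area mutant 4 was high in Notch1 (32.4 CPM) and Notch2 (186 CPM), and axon-area mutant 1 was high in Notch3 (42.9 CPM). Of the ligands, Dll1 was at 15.6 CPM in ventral control 2, and Jag1 at 6.95 CPM in ventral control 1 and at 18.1 CPM in axon-area control 2. Rbpj was at 257 CPM in dorsal control 3 and at 29.2 CPM in axon-area mutant 1. Hes1 had no such library in any group.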

How the results depend on the processing

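DESeq2 in place of edgeR raised the number of the 10 genes called from 0 to 2 in the dorsal genotype comparison and to 1 in that of the axon area. Among controls it gave 2 for dorsal against ventral and 1 for ventral against axons. Among mutants it gave 1 for dorsal against ventral, 3 for dorsal against axons and 1 for ventral against axons, and for the differences of the genotype effect 1 (dorsal minus ventral), 2 (dorsal minus axons) and 1 (ventral minus axons). Hes1 was called for dorsal against ventral in mutants also with no count filter (edgeR adjusted p = 0.00859) and without ventral mutant 1 (0.0274) or ventral mutant 2 (0.0391), so leaving out 1 library gave 0 to 1 called genes there and 0 in the other 11 comparisons.

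With the replicate number as a block, 0 of the 10 were called in any comparison. Where the genotype effect was compared between regions, the block was the number within a genotype, taken as the embryo. The Hes1 log2 fold change was -1.59 in the dorsal genotype comparison and -1.69 for dorsal against ventral in mutants (edgeR adjusted p = 1 and 0.204). The block turned the sign of Notch2 in the dorsal (0.14), Hey2 (-0.65), Dll1 (2.11) and Rbpj (-0.20) in the ventral and Hes5 (-1.31) in the axon comparison. In the genotype comparisons, however, the block joined a control and a mutant of the same number, which the labels do not pair. For numbers 2 and 3 the control was in batch B and the mutant in batch A. The block fits of the genotype comparisons are therefore no check of the genotype differences.

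Of 912 refits of 54 gene results, 842 kept direction and side of the threshold, 23 passed it and 47 turned sign; the cause was not tested. In batch B alone, Notch1 (-0.15) and Notch3 (-0.07) in the dorsal and Hes1 (0.17), Hey2 (-0.59) and Rbpj (-0.25) in the ventral comparison turned. In one fit of all 27 libraries, dorsal Notch2 (0.10) and Notch3 (-0.01) and ventral Notch1 (0.71), Notch2 (0.13), Dll1 (0.94) and Rbpj (-0.39) did. With no batch term, ventral Dll1 (1.04) and Rbpj (-0.26) did. With a pseudocount of 0.1 CPM, chosen after seeing the data, ventral Hey2 turned (log2 difference -0.31), axon-area Hey1 moved from an exact permutation p of 0.0476 to 0.0873, and 28 of 30 tests kept their side.

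Leaving out 1 library at a time, the log2 fold change of genes that turned sign ranged from -4.20 to 4.33 (Hey2), -0.33 to 2.48 (Notch1), -0.46 to 0.24 (Notch2), -0.05 to 0.40 (Notch3) and -1.47 to 0.35 (Rbpj) in the dorsal comparison. The ventral ranges were -0.20 to 0.15 (Hes1), -0.97 to 4.54 (Hes5), -3.77 to 1.62 (Hey2), -0.97 to 0.34 (Notch1), -0.19 to 0.01 (Notch2), -9.55 to 4.32 (Dll1) and -0.36 to 1.10 (Rbpj), and those of the axon area -0.23 to 0.06 (Hes1) and -2.99 to 1.26 (Notch2).

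Dorsal Hes1 was below control in all of its 16 refits, with an adjusted p of 6.87e-06 to 1. Over its alternatives the adjusted p was 5.37e-09 to 0.214 for Hes1 in dorsal against ventral mutants, 0.00302 to 1 and 0.00106 to 0.868 for its dorsal minus ventral and dorsal minus axons differences, 0.0156 to 1 for dorsal Dll1 and 0.000415 to 1 for ventral Psen2. With the longest transcript as length, 48 of 60 levels per kb moved by less than 1 SD and 12 by more. Low counts limit Dll1, Hes5, Hey1 and Hey2, for which many libraries hold no read and the size of a fold is not measured.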
